A study of Mus musculus with 10 samples.

Results

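Genes of the transforming growth factor beta (TGF-beta) pathway were followed in the embryonic mouse pancreas of an Fgf9 LacZ line. They were the ligands Tgfb1, Tgfb2 and Tgfb3, the receptors Tgfbr1, Tgfbr2 and Tgfbr3, the inhibitor Smad7 and the matrix gene Tgfbi, chosen by symbol, 8 of the 54532 genes in the count table. All 8 passed the filter on low counts that left 18898 genes for testing.

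TGF-beta ligands are secreted in a latent form bound to a propeptide and to latent TGF-beta binding proteins, and they signal once released. The active ligand binds the type II receptor TGFBR2, which recruits and phosphorylates the type I receptor TGFBR1, and TGFBR1 then phosphorylates Smad2 and Smad3. TGFBR3, or betaglycan, is a co-receptor that presents ligand, TGF-beta 2 above all, Smad7 is an inhibitory Smad that TGF-beta itself induces, and Tgfbi encodes a secreted matrix protein that TGF-beta induces in many cell types. In the pancreas, TGF-beta signalling is known for its effects on epithelial growth and differentiation and on the matrix made by mesenchymal cells.

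The libraries were bulk RNA sequencing of whole pancreata dissected at embryonic day (E) 14.5 and E13.5, in 4 groups. The null-labelled groups were Fgf9 -/-, with 2 libraries at each stage, and the control groups mixed Fgf9 +/+ and +/- embryos, with 3 libraries at each stage. All embryos came from an Fgf9 LacZ line on the C57BL/6J background, in which a LacZ cassette sits in the Fgf9 locus, so that the heterozygous embryos among the controls carry it too and the change is present in every cell of the null-labelled embryos. Each library pooled several pancreata, 3 to 7 in the null-labelled libraries and 6 to 12 in the controls, so pool size went with genotype. Nothing in the labels ties the pools to different litters, and the p-values therefore speak only of variation among these pools, which may be technical.

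Depth ran from 17736769 to 22798257 counts per library. Fgf9 itself, the targeted gene, averaged 8.93 ± 3.9 CPM (reads scaled to library size) in the null-labelled libraries and 9.79 ± 3.5 CPM in the controls at E14.5 (SD, n = 2 and 3), with an edgeR quasi-likelihood adjusted p of 0.957. At E13.5 it averaged 6.61 ± 1.5 CPM in the null-labelled libraries and 15.3 ± 3.7 CPM in the controls (SD, n = 2 and 3), with an edgeR adjusted p of 0.293. Pairing the libraries by number, with control 3 left unpaired, called Fgf9 lower at E13.5 (log2 fold change -1.13, edgeR adjusted p = 0.0258) and over both stages (-0.75, 0.0236). So did the edgeR fit without the low-count filter (adjusted p of 0.00227 and 0.0245). That unfiltered fit took the spread from the trend over all genes, not from each gene's own replicates. A count over the whole gene cannot tell intact from interrupted transcripts, so these values do not check the labels. Pancreatic epithelium markers were counted in every library. At E14.5 their summed level was 2603 CPM in null-labelled library 1 and 5635 CPM in library 2, against 3467, 6440 and 5606 CPM in the 3 controls. The E14.5 libraries with the lowest epithelial sum of their group, null-labelled 1 and control 1, had the highest value of their group for 8 of 8 members. At E13.5 the lowest sums were also those of null-labelled 1 (2111 CPM) and control 1 (1873 CPM). These 2 libraries had the highest value of their group for 6 and 4 of 8 members. The share over all genes was not counted, and a link with the epithelial sums was not tested.

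The genes lie on 8 chromosomes of GRCm38 (mm10), none of them chromosome 14, which carries Fgf9. Tgfb1 is at chr7:25687002-25705077 on the plus strand, Tgfb2 at chr1:186622792-186705989 on the minus strand and Tgfb3 at chr12:86056745-86079041 on the minus strand. Of the receptors, Tgfbr1 is at chr4:47353222-47414931 on the plus strand, Tgfbr2 at chr9:116084293-116175360 on the minus strand and Tgfbr3 at chr5:107106570-107289629 on the minus strand. Tgfbi is at chr13:56609523-56639562 on the plus strand. Counts were per gene, over exons. The largest part of any member's exons shared with another annotated gene was 7.6% (Tgfb3 with Gm48008 on the other strand, which had 0.9 reads on average).

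The promoter windows of Tgfb2 and Tgfbi are shown because these genes carry the largest genotype differences among the members, in opposite directions. Each is the 250 bases before the annotated start, 5′ to 3′ in the direction of transcription, from RefSeq on GRCm38.p6. The gene positions above came from another annotation. For Tgfbi the RefSeq start lies downstream of the gene start given above, so the last bases of its window fall inside that gene span. Capitals mark the TATA box letters TATAAA and the Smad-binding letters CAGAC, searched on both strands, so that GTCTG is CAGAC on the opposite strand.
Tgfb2, chr1:186705990-186706239, minus strand: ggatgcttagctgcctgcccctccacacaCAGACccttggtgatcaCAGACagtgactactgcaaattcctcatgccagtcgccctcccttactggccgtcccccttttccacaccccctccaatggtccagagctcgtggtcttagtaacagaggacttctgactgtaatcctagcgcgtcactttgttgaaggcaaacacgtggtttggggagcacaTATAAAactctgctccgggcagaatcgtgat
Tgfbi, chr13:56609336-56609585, plus strand: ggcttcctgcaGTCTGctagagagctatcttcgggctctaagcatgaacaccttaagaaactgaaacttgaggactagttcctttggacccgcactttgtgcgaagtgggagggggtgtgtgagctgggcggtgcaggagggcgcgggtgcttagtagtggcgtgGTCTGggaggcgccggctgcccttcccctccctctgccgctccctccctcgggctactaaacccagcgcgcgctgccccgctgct

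Counted back from the start, Tgfb2 had TATAAA at -31 and CAGAC at -221 and -204, in a window of 53.6% GC. The Tgfbi window, of 62.4% GC, held no TATAAA and had CAGAC on the opposite strand at -239 and -85. Of the 32851 promoter windows of this length in the table, 12.4% held TATAAA and 42.2% held CAGAC. Windows were matched for 5 of the 8 members. Among the others, that of Tgfbr2 and 1 of the 2 windows of Tgfbr1 held CAGAC once each, and those of Tgfb1 and the other Tgfbr1 start held neither.

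The first question was whether the members differed between null-labelled and control pancreas. All 3 ligand genes were higher in the null-labelled libraries and Tgfbi was lower over both stages, while the receptors and Smad7 did not pass edgeR's test. A gene was called at an edgeR adjusted p under 0.05 over all 18898 genes. Over both stages, 4 of the 8 members were called, 3 higher and 1 lower, where 1.87% of all genes were called, 1.46% higher and 0.418% lower. At E14.5 edgeR called 0 of the 8 members, where 0.111% of all genes were called. At that stage 4 members had an unadjusted p under 0.05, as did 8.54% of all genes, and DESeq2 called 3, where it called 1.53% of all genes. At E13.5, 1 member was called, as lower, where 0.307% of all genes were called and 0.175% called lower, and 4 more had an unadjusted p under 0.05, as did 6.56% of all genes. The same 5 members, Tgfb1, Tgfb2, Tgfb3, Tgfbr2 and Smad7, were higher in both null-labelled libraries than in all 3 controls at E14.5 and again at E13.5. Of all genes, 11.9% were higher without overlap at E14.5, 12.7% at E13.5 and 4.16% at both. The median log2 fold change of the 8 members was 0.48 at E14.5 and 0.42 at E13.5, where the medians of all genes were -0.02 and -0.01.

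**Figure D1:**
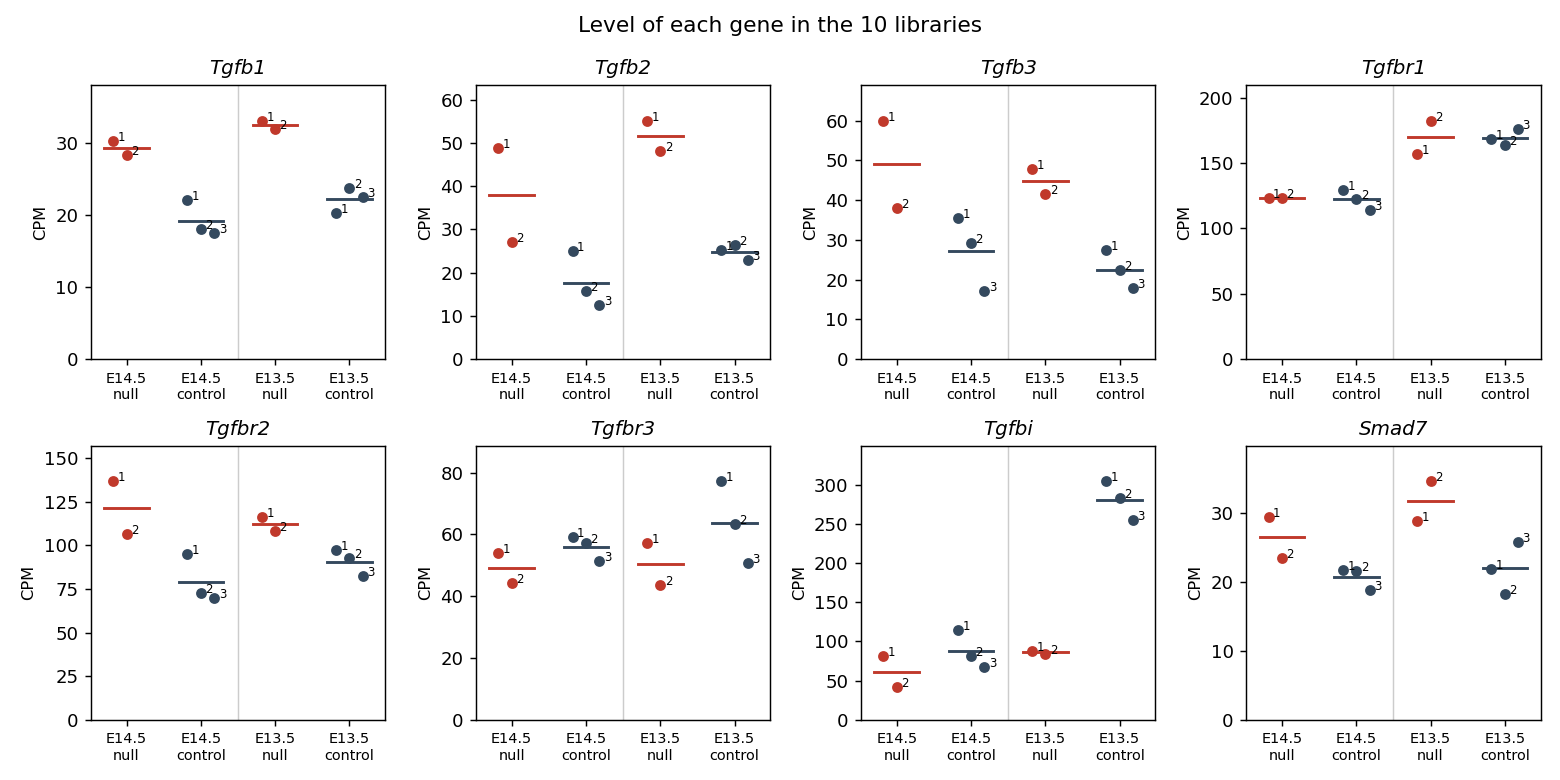
Level of each member in every library, in CPM on a linear axis that differs between panels, with null-labelled libraries left of controls within each stage, replicate numbers beside the points and a line at the group mean. The 2 null-labelled points of Tgfb1, Tgfb2, Tgfb3, Tgfbr2 and Smad7 lie above the 3 control points at both stages, while the Tgfbi controls at E13.5, at 255 to 304 CPM, lie far above every other Tgfbi point.

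Among the ligands, Tgfb2, the isoform that depends most on betaglycan, had the largest genotype difference. At E14.5 it stood at 48.9 and 27.1 CPM in the null-labelled libraries, against 24.9, 15.6 and 12.5 CPM in the controls. At E13.5 it stood at 55.2 and 48.2 CPM in the null-labelled libraries, against 25.2, 26.3 and 23.0 CPM in the controls. The groups did not overlap at either stage, and they came closest at E14.5, where null-labelled library 2 was just above control 1. The log2 fold change was 1.10 (SE 0.27) at E14.5 and 1.06 (SE 0.27) at E13.5, with edgeR adjusted p of 0.151 and 0.183. Over both stages Tgfb2 rose 2.11-fold, a log2 fold change of 1.08 (SE 0.19, 95% interval 0.66 to 1.496), with an edgeR adjusted p of 0.0134. Tgfb2 was not called without null-labelled library 1 of E13.5 (edgeR adjusted p = 0.0641) or of E14.5 (0.0516), and without that E14.5 library the log2 fold change at E14.5 was 0.61.

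Tgfb1, the isoform best known from blood cells, endothelium and platelets, had a smaller difference with a narrower spread. It was measured at 30.3 and 28.3 CPM in the null-labelled libraries and at 22.1, 18.1 and 17.5 CPM in the controls at E14.5. The E13.5 values were 33.1 and 32.0 CPM in the null-labelled libraries and 20.3, 23.8 and 22.6 CPM in the controls. Every null-labelled library was above every control of either stage. Its log2 fold change was 0.61 (SE 0.15) at E14.5 and 0.55 (SE 0.15) at E13.5, with edgeR adjusted p of 0.152 and 0.227. Over both stages Tgfb1 rose 1.49-fold, a log2 fold change of 0.58 (SE 0.11, 95% interval 0.35 to 0.81; edgeR adjusted p = 0.0166). That call was lost when 1 of 5 libraries was left out, null-labelled 1 or 2 of E13.5 or null-labelled 1, control 2 or control 3 of E14.5, with edgeR adjusted p of 0.051 to 0.0772.

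For Tgfb3, a ligand of mesenchyme that is needed for fusion of the palate, the libraries of E14.5 were widely spread within each genotype. Its E14.5 levels were 60.0 and 38.1 CPM in the null-labelled libraries, against 35.5, 29.2 and 17.2 CPM in the controls. At E13.5 they were 47.9 and 41.7 CPM in the null-labelled libraries, against 27.3, 22.3 and 17.9 CPM in the controls. The groups did not overlap at either stage, though control 1 of E14.5 came within 3 CPM of null-labelled library 2. The log2 fold change was 0.85 (SE 0.28) at E14.5 and 0.99 (SE 0.28) at E13.5, with edgeR adjusted p of 0.34 and 0.243. Over both stages Tgfb3 rose 1.89-fold, a log2 fold change of 0.92 (SE 0.20, 95% interval 0.49 to 1.34; edgeR adjusted p = 0.035). It was called in 3 of the 10 fits that left out 1 library, and the edgeR adjusted p was 0.0523 to 0.147 without null-labelled 1 or 2, control 2 or control 3 of E13.5, or without null-labelled 1, control 2 or control 3 of E14.5.

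In a further fit the libraries of the 2 genotypes were paired by number within each stage, as a replicate block. Control 3 of each stage had no partner, so the genotype estimates of this fit rest on the libraries numbered 1 and 2. The fit left 2 residual degrees of freedom, against a median of 13.5 prior degrees of freedom that edgeR borrowed from the spread of other genes. All p-values of the replicate block within stage, that of Fgf9 included, therefore rest mostly on this borrowed spread. The pairing itself is weakly grounded. In that fit Tgfb2 rose at E14.5 (log2 fold change 0.89, edgeR adjusted p = 0.00211) and at E13.5 (1.0, 0.000455). Tgfb3 also rose at both stages in it (0.575 at E14.5 with an edgeR adjusted p of 0.0325, and 0.85 at E13.5 with 0.00178). Without null-labelled library 1 of both stages, edgeR called none of the 3 ligands over both stages. The log2 fold changes were then 0.54 for Tgfb1, 0.78 for Tgfb2 and 0.68 for Tgfb3, with edgeR adjusted p of 0.193, 0.175 and 0.327, and 1 member, Tgfbi, was called by edgeR.

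Adding the ligands per kilobase of exon gave 32.2 and 21.6 CPM per kb in the null-labelled libraries and 19.2, 14.9 and 10.7 CPM per kb in the controls at E14.5. At E13.5 the sum was 30.2 and 27.0 CPM per kb in the null-labelled libraries and 16.5, 15.9 and 13.7 CPM per kb in the controls. Every null-labelled sum was above every control sum. The share of Tgfb2 in that sum was 26.2% and 21.7% in the null-labelled libraries and 22.4%, 18.1% and 20.2% in the controls at E14.5. At E13.5 the Tgfb2 share was 31.5% and 30.8% in the null-labelled libraries and 26.4%, 28.6% and 28.9% in the controls. The groups of Tgfb2 shares overlapped at E14.5 and did not at E13.5. Tgfb3 held 52.2% to 55.1% of the sum in the null-labelled libraries and 47.4% to 57.8% in the controls at E14.5, the largest ligand share in each of these 5 libraries.

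Among the receptors, Tgfbr2 and Tgfbr1, the type II and type I subunits of the signalling complex, did not move alike. Tgfbr2 was at 137 and 106 CPM in the null-labelled libraries and at 94.9, 72.9 and 69.8 CPM in the controls at E14.5. At E13.5 it was at 116 and 108 CPM in the null-labelled libraries and at 97.1, 92.6 and 82.2 CPM in the controls. The groups did not overlap at either stage, but they were closer at E13.5. The Tgfbr2 log2 fold change was 0.62 (SE 0.16, edgeR adjusted p = 0.166) at E14.5, 0.31 (SE 0.16, edgeR adjusted p = 0.826) at E13.5 and 0.46 (SE 0.11, edgeR adjusted p = 0.0593) over both stages. DESeq2 called Tgfbr2 at E14.5 (adjusted p = 0.031) and over both stages (0.00882), as did edgeR without the low-count filter (adjusted p of 0.00658 and 0.00141). The unfiltered fit did not use the gene's own spread. The fit with the replicate block called Tgfbr2 at E14.5 (log2 fold change 0.535, edgeR adjusted p = 0.00591) and over both stages (0.39, 0.00211).

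Tgfbr1 was at 123 and 123 CPM in the null-labelled libraries and at 129, 123 and 114 CPM in the controls at E14.5. At E13.5 it was at 157 and 182 CPM in the null-labelled libraries and at 168, 164 and 176 CPM in the controls. The groups overlapped at both stages. Over both stages its log2 fold change was 0.01 (SE 0.08), and the 95% interval of -0.17 to 0.18 bounds the difference between genotypes; the edgeR adjusted p was 0.989. The ratio of Tgfbr1 to Tgfbr2 within a library, in CPM per kb, was 1.13 and 1.44 in the null-labelled libraries and 1.71, 2.11 and 2.05 in the controls at E14.5. At E13.5 this ratio was 1.69 and 2.11 in the null-labelled libraries and 2.17, 2.22 and 2.68 in the controls. The ratio was lower in every null-labelled library than in any control of its stage.

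Tgfbr3, the co-receptor, was at 54.0 and 44.1 CPM in the null-labelled libraries and at 59.2, 57.4 and 51.4 CPM in the controls at E14.5. At E13.5 it was at 57.2 and 43.5 CPM in the null-labelled libraries and at 77.2, 63.4 and 50.7 CPM in the controls. The groups overlapped at both stages, since null-labelled library 1 was above control 3 each time. The log2 fold change was -0.19 (SE 0.18) at E14.5, -0.34 (SE 0.18) at E13.5 and -0.27 (SE 0.13) over both, with edgeR adjusted p of 0.864, 0.847 and 0.46. With the replicate block Tgfbr3 fell at E13.5 (log2 fold change -0.49, edgeR adjusted p = 0.0278) and over both stages (-0.37, 0.0102). Within libraries the ratio of Tgfbr3 to Tgfbr2, in CPM per kb, was 0.494 and 0.519 in the null-labelled libraries and 0.780, 0.984 and 0.922 in the controls at E14.5. At E13.5 it was 0.617 and 0.503 in the null-labelled libraries and 0.995, 0.856 and 0.772 in the controls, so these groups did not overlap at either stage.

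**Figure D2:**
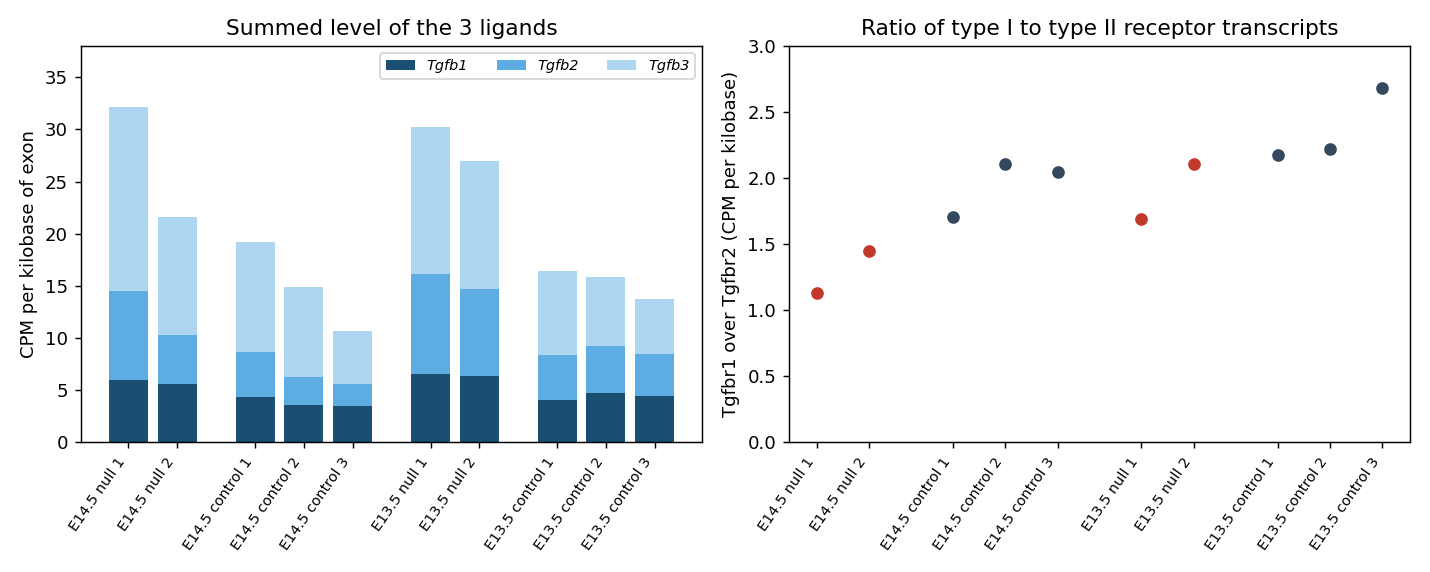
Summed level of the 3 ligands, as stacked bars in CPM per kb of exon, and the ratio of Tgfbr1 to Tgfbr2, as points, in each library, with null-labelled libraries left of controls at each stage. Ligand sums of the null-labelled libraries run from 21.6 to 32.2 CPM per kb and those of the controls from 10.7 to 19.2, and the receptor ratio is lower in the null-labelled libraries at each stage.

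Smad7, the feedback inhibitor, lies at chr18:75367529-75395935 on the plus strand. It was at 29.5 and 23.5 CPM in the null-labelled libraries and at 21.8, 21.6 and 18.8 CPM in the controls at E14.5. At E13.5 Smad7 was at 28.9 and 34.6 CPM in the null-labelled libraries and at 21.9, 18.3 and 25.9 CPM in the controls. The groups did not overlap at either stage, with gaps of a few CPM. The log2 fold change was 0.35 (SE 0.18) at E14.5, 0.53 (SE 0.18) at E13.5 and 0.44 (SE 0.13, 95% interval 0.17 to 0.72) over both, with edgeR adjusted p of 0.647, 0.424 and 0.125. The fit with the replicate block called Smad7 higher at E13.5 (log2 fold change 0.66, edgeR adjusted p = 0.0376) and over both stages (0.47, 0.0223).

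Tgfbi went the other way from the ligands. At E14.5 it was at 80.8 and 41.9 CPM in the null-labelled libraries and at 115, 81.1 and 66.9 CPM in the controls. At E13.5 it was at 87.6 and 84.5 CPM in the null-labelled libraries and at 304, 284 and 255 CPM in the controls. The groups overlapped at E14.5, where null-labelled library 1 was level with control 2, and were far apart at E13.5. Lower values without overlap at E13.5 were found for 10.9% of all genes. At E13.5 Tgfbi fell 3.26-fold, a log2 fold change of -1.71 (SE 0.27, edgeR adjusted p = 0.023). At E14.5 the log2 fold change was -0.52 (SE 0.26, 95% interval -1.08 to 0.04, edgeR adjusted p = 0.638), and it was -1.07 without null-labelled library 1 and -0.12 without library 2.

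Over both stages Tgfbi fell 2.16-fold, a log2 fold change of -1.11 (SE 0.19, edgeR adjusted p = 0.00968), and this call was kept in 10 of 10 fits that left out 1 library (-0.91 to -1.39). The E13.5 call was lost without any 1 of the 5 E13.5 libraries, although the log2 fold change stayed between -1.65 and -1.77, and edgeR adjusted p then ran up to 0.239. The difference between the stage effects was 1.19 on the log2 scale (SE 0.36, 95% interval 0.41 to 1.97), less negative at E14.5, with an unadjusted p of 0.00599 and an edgeR adjusted p of 1, and it was 0.64 without null-labelled library 1 of E14.5. For the other members that difference was -0.17 (Smad7) to 0.31 (Tgfbr2), and for 5 of them its sign changed when 1 library was left out. No gene of the 18898 was called by edgeR for that difference between stages (0% of all genes), 454 had an unadjusted p under 0.05 and DESeq2 called 4. With the replicate block Tgfbi was called lower at E14.5 (log2 fold change -0.73, edgeR adjusted p = 0.00194) and its genotype difference was called unequal between stages (1.05, edgeR adjusted p = 0.0234).

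**Figure D3:**
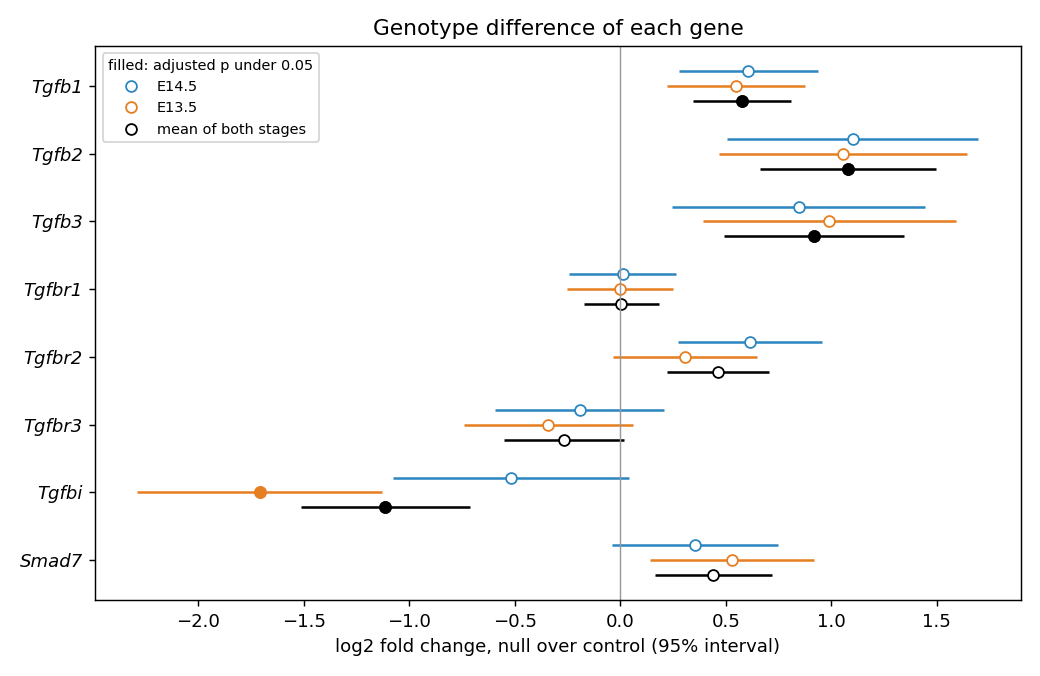
Log2 fold change of each member, null-labelled over control, at E14.5, at E13.5 and over both stages, as points with 95% intervals from the edgeR fit, filled where called. Tgfb1, Tgfb2 and Tgfb3 lie above 0 in each comparison, Tgfbr1 lies at 0, and Tgfbi lies lowest at E13.5, at -1.71.

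Between the stages, from E13.5 to E14.5, Tgfbi fell in the controls and no ligand was called in either genotype. In the controls Tgfbi was at 87.8 ± 25 CPM at E14.5 and at 281 ± 25 CPM at E13.5 (SD, n = 3 each), a log2 fold change of -1.68 (SE 0.23, edgeR adjusted p = 0.012). It was the 1 member called between stages in the controls, where 1.12% of all genes were called and 0.339% called lower, and the call was lost without any 1 of the 3 E13.5 controls or without E14.5 control 2 or 3 (edgeR adjusted p = 0.0656 to 0.0887). In the null-labelled libraries Tgfbi was at 61.4 ± 27 CPM at E14.5 and at 86.0 ± 2.2 CPM at E13.5 (SD, n = 2 each), a log2 fold change of -0.49 (SE 0.28, edgeR adjusted p = 0.478). In those libraries edgeR called 0 of the 8 members between stages, where 0.249% of all genes were called. There 1 member had an unadjusted p under 0.05, as did 13.8% of all genes. DESeq2 called 1 member, Tgfbr1, where it called 3.44% of all genes.

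Tgfbr1 and Tgfbi were lower at E14.5 than at E13.5 without overlap in both genotypes, and Tgfb1 in the null-labelled libraries only. For Tgfbr1 the log2 fold change was -0.46 (SE 0.13, edgeR adjusted p = 0.146) in the null-labelled libraries and -0.47 (SE 0.10, edgeR adjusted p = 0.0519) in the controls. DESeq2 called Tgfbr1 lower in each, where it called 1.19% of all genes lower in the null-labelled libraries and 2.41% in the controls. Lower values at the later stage without overlap were found for 21.3% of all genes in the null-labelled libraries and 10.6% in the controls. For Tgfb2 the stage log2 fold change was -0.44 (95% interval -1.09 to 0.21) in the null-labelled libraries and -0.49 (95% interval -1.03 to 0.06) in the controls. In the null-labelled libraries it was -0.15 for Tgfb1, 0.13 for Tgfb3, 0.12 for Tgfbr2, -0.04 for Tgfbr3 and -0.26 for Smad7. In the controls it was -0.21 for Tgfb1, 0.28 for Tgfb3, -0.19 for Tgfbr2, -0.19 for Tgfbr3 and -0.09 for Smad7, and edgeR called none of these. The genotype and stage comparisons share libraries, so a high or low library enters both.

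By level per kilobase, Tgfbi stood first in both control groups and second to Tgfbr1 in both null-labelled groups, and Tgfb2 stood last in both control groups. In the E13.5 controls Tgfbi led at 74.5 CPM per kb, above Tgfbr1 at 25.9, and neither range overlapped that of a neighbour. In the E13.5 null-labelled libraries Tgfbr1 led at 25.9 CPM per kb, followed by Tgfbi at 22.8, then by Tgfbr2 at 13.7 and Tgfb3 at 13.2, whose ranges overlapped. In the E14.5 controls Tgfbi, at 23.3 CPM per kb, and Tgfbr1, at 18.7, overlapped and led the rest. In the E14.5 null-labelled libraries Tgfbr1 was at 18.8, Tgfbi at 16.3, Tgfbr2 at 14.8 and Tgfb3 at 14.5 CPM per kb, and neighbours among these overlapped. Tgfb1, at 3.82 to 6.45 CPM per kb across the 4 group means, was the lowest or next to the lowest member in each group. Tgfb2 was at 6.57 CPM per kb in the null-labelled libraries and 3.05 in the controls at E14.5, and at 8.92 in the null-labelled libraries and 4.29 in the controls at E13.5, the lowest member in both control groups.

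The other genes of the pathway were taken from lists by role. Of 53 such genes tested, edgeR called 1 higher at E14.5 (Acta2), 2 higher at E13.5 (Acta2 and Ctgf) and 5 higher over both stages, with none called lower. Of all genes, edgeR called 0.111%, 0.307% and 1.87% in these comparisons, in either direction. The median log2 fold changes of the 53 genes were 0.19, 0.22 and 0.20 in these comparisons. Of the 12 tested genes of ligand latency and activation, 1 was called over both stages, Ltbp1, which encodes a latent TGF-beta binding protein that ties the ligand to the matrix. Ltbp1 averaged 84.9 ± 39 CPM in the null-labelled libraries and 32.5 ± 13 CPM in the controls at E14.5 (SD, n = 2 and 3). At E13.5 it averaged 122 ± 10 CPM in the null-labelled libraries and 58.0 ± 8.3 CPM in the controls (SD, n = 2 and 3). Over both stages it rose 2.34-fold (log2 fold change 1.23, SE 0.21, edgeR adjusted p = 0.0112), a call kept in 10 of 10 fits that left out 1 library. The latency list had a median log2 fold change of 0.38 over both stages, with 12 of 12 estimates above 0, where all genes had a median of -0.02. With the replicate block 4 of its genes were called higher over both stages, Ltbp1, Ltbp3, Ltbp4 and the microfibril gene Fbn1, where that fit called 4.11% of all genes higher.

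Of the 16 genes listed as induced by TGF-beta, 4 were called over both stages and all 4 were higher, where 1.46% of all genes were called higher. The list median was 0.60 over both stages, with 13 of 16 estimates above 0, where all genes had a median of -0.02. Smad7 and Tgfbi, which TGF-beta also induces, were counted among the members and not in this list. Their log2 fold changes over both stages were 0.44 and -1.11. The lowest estimates of the list were those of the cell-cycle inhibitor gene Cdkn2b (log2 fold change -0.79, edgeR adjusted p = 0.688) and the transcription factor gene Snai1 (-0.35, 0.413). Cdkn2b was near the floor, at 0.72 CPM on average in the null-labelled libraries and 0.96 in the controls at E14.5. At E13.5 it averaged 0.097 CPM in the null-labelled libraries and 0.22 in the controls. Acta2, smooth muscle actin, averaged 188 ± 81 CPM in the null-labelled libraries and 47.5 ± 12 CPM in the controls at E14.5 (SD, n = 2 and 3). It rose 3.96-fold at E14.5 (edgeR adjusted p = 0.0152, lost without E14.5 control 2 or 3 and, at 0.315, in the fit of the E14.5 groups alone) and 3.17-fold at E13.5 (edgeR adjusted p = 0.023, lost without any 1 E13.5 library). Acta2 rose 3.54-fold over both stages (edgeR adjusted p = 0.000546). Ctgf, a matricellular growth factor gene, rose 2.52-fold at E13.5 (edgeR adjusted p = 0.0321, lost without any 1 E13.5 library) and 2.20-fold over both stages (edgeR adjusted p = 0.00426). The matrix gene Postn, a relative of Tgfbi with the same fasciclin domains, rose 1.61-fold over both stages (edgeR adjusted p = 0.0091). Fn1, fibronectin, rose 2.20-fold over both stages (edgeR adjusted p = 0.0349), a call kept in 2 of 10 fits that left out 1 library. The calls of Acta2, Ctgf and Postn over both stages were each kept in 10 of 10.

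Without null-labelled library 1 of both stages, Acta2 was the 1 gene of the induced list that stayed called over both stages, and no latency gene did. With the replicate block the induced list had 6 genes called at E14.5, 5 at E13.5 and 8 over both stages, all higher, where that fit called 1.81%, 2.07% and 4.11% of all genes higher. The other 4 lists, of further receptors, Smads, inhibitors and the activin branch, held 25 tested genes. EdgeR called 0 of them in each genotype comparison. Over both stages 2 had an unadjusted p under 0.05, as did 12% of all genes, and DESeq2 called 0, where it called 3.98% of all genes. The median log2 fold change of the 25 genes was 0.02. Smad2 and Smad3, which carry the signal from TGFBR1, had log2 fold changes of 0.01 and -0.09 over both stages, with edgeR adjusted p of 0.975 and 0.858.

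**Figure D4:**
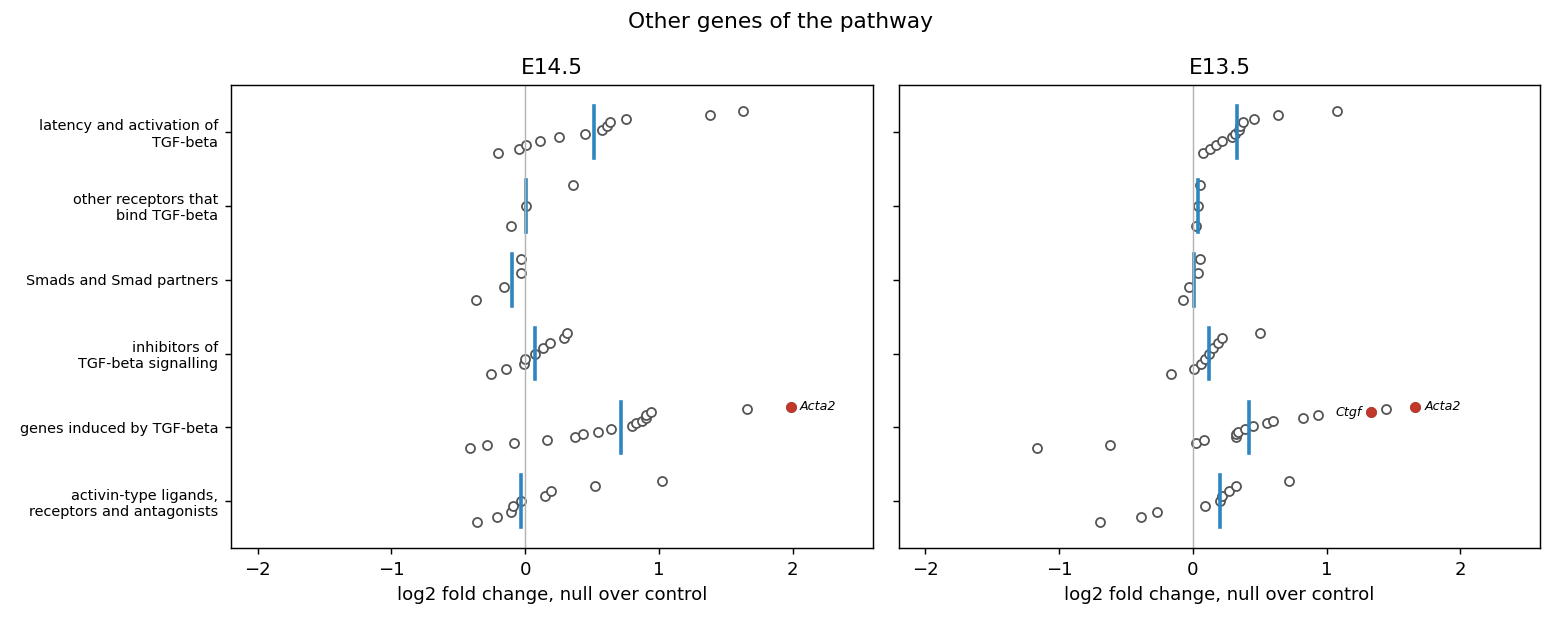
Log2 fold change, null-labelled over control, of each tested gene of the 6 pathway lists at E14.5 and at E13.5, 1 point a gene, with called genes filled and named and the list median as a bar. The medians of the latency list are 0.51 at E14.5 and 0.33 at E13.5 and those of the induced list 0.72 and 0.42, while the medians of the other 4 lists lie between -0.09 and 0.20.

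Summed levels of several cell type marker lists differed between genotypes too. For the counts of called markers below, edgeR called 1.46% of all genes higher and 0.418% lower over both stages. The summed level of 7 general mesenchyme markers was 1899 to 2358 CPM in the null-labelled libraries and 1211 to 1619 CPM in the controls at E14.5. At E13.5 it was 1936 to 1972 CPM in the null-labelled libraries and 1508 to 1618 CPM in the controls, and edgeR called 2 of the 7 higher over both stages. Dcn, Lum, Vim and Foxf1 averaged higher in the null-labelled libraries at both stages (Dcn 621 against 247 CPM at E14.5 and 359 against 167 at E13.5). Pdgfra and Hand2 averaged higher at E14.5 and lower at E13.5. Pdgfrb differed little (116 against 122 CPM and 148 against 145), so the sum does not stand for each marker. The 7 endothelial markers summed to 459 to 521 CPM in the null-labelled libraries and 417 to 438 CPM in the controls at E14.5. At E13.5 they summed to 544 to 613 CPM in the null-labelled libraries and 387 to 447 CPM in the controls, with 1 of the 7 called higher over both stages. Neither sum overlapped between genotypes at either stage.

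The 4 spleen mesenchyme markers summed to 17.0 to 18.2 CPM in the null-labelled libraries and 85.2 to 107 CPM in the controls at E14.5. At E13.5 they summed to 11.1 to 13.4 CPM in the null-labelled libraries and 115 to 153 CPM in the controls. EdgeR called all 4 lower over both stages, and 1 of the 4 was at 0 counts in null-labelled library 2 of E14.5. Macrophage markers, 2 of 7 called higher over both stages, summed to 252 to 341 CPM in the null-labelled libraries and 188 to 248 CPM in the controls at E14.5. Their sums overlapped at E13.5, at 234 to 294 CPM in the null-labelled libraries and 212 to 273 CPM in the controls.

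Liver markers, from tissue near the pancreas, summed to 254 to 396 CPM in the null-labelled libraries and 65.7 to 133 CPM in the controls at E14.5. At E13.5 they summed to 244 to 324 CPM in the null-labelled libraries and 76.3 to 159 CPM in the controls, with 5 of 6 called higher over both stages. Megakaryocyte markers, 1 of 4 called higher, summed to 25.9 to 34.0 CPM in the null-labelled libraries and 14.5 to 20.7 CPM in the controls over the 2 stages. Skeletal muscle markers, 2 of 5 called higher, summed to 16.0 to 140 CPM in the null-labelled libraries and 4.51 to 12.1 CPM in the controls over the 2 stages. The 140 CPM was null-labelled library 1 of E14.5, with 19.3 CPM in library 2 and 40.9 and 16.0 CPM at E13.5. At E13.5, 1 of the 5 was at 0 counts in each null-labelled library, 2 in control 2 and 1 in control 3. The liver, megakaryocyte and skeletal muscle sums did not overlap between genotypes, and the part of these and the other cell types in the levels of the members was not tested.

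Markers of smooth muscle and pericytes, 3 of 7 called higher, summed to 290 to 446 CPM in the null-labelled libraries and 230 to 312 CPM in the controls at E14.5. At E13.5 they summed to 264 to 324 CPM in the null-labelled libraries and 275 to 373 CPM in the controls, and the groups overlapped at both stages. The sums mix genes that differ. Actg2, Myh11, Cnn1 and Cspg4 averaged higher in the null-labelled libraries at both stages (Actg2 38.5 against 4.68 CPM at E14.5 and 18.9 against 4.84 at E13.5). Rgs5 averaged lower at both (64.7 against 68.6 CPM and 64.2 against 98.9), and Kcnj8 and Abcc9 were higher at E14.5 and lower at E13.5. The 6 markers of neurons and glia, 2 of them called higher over both stages, summed to 77.3 to 150 CPM in the null-labelled libraries and 44.7 to 87.8 CPM in the controls at E14.5. At E13.5 they summed to 86.9 to 155 CPM in the null-labelled libraries and 57.8 to 72.3 CPM in the controls, without overlap. The sums of the mesothelium and endocrine marker lists overlapped at both stages. In bulk samples fewer cells of a type and less RNA per cell cannot be told apart.

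**Figure D5:**
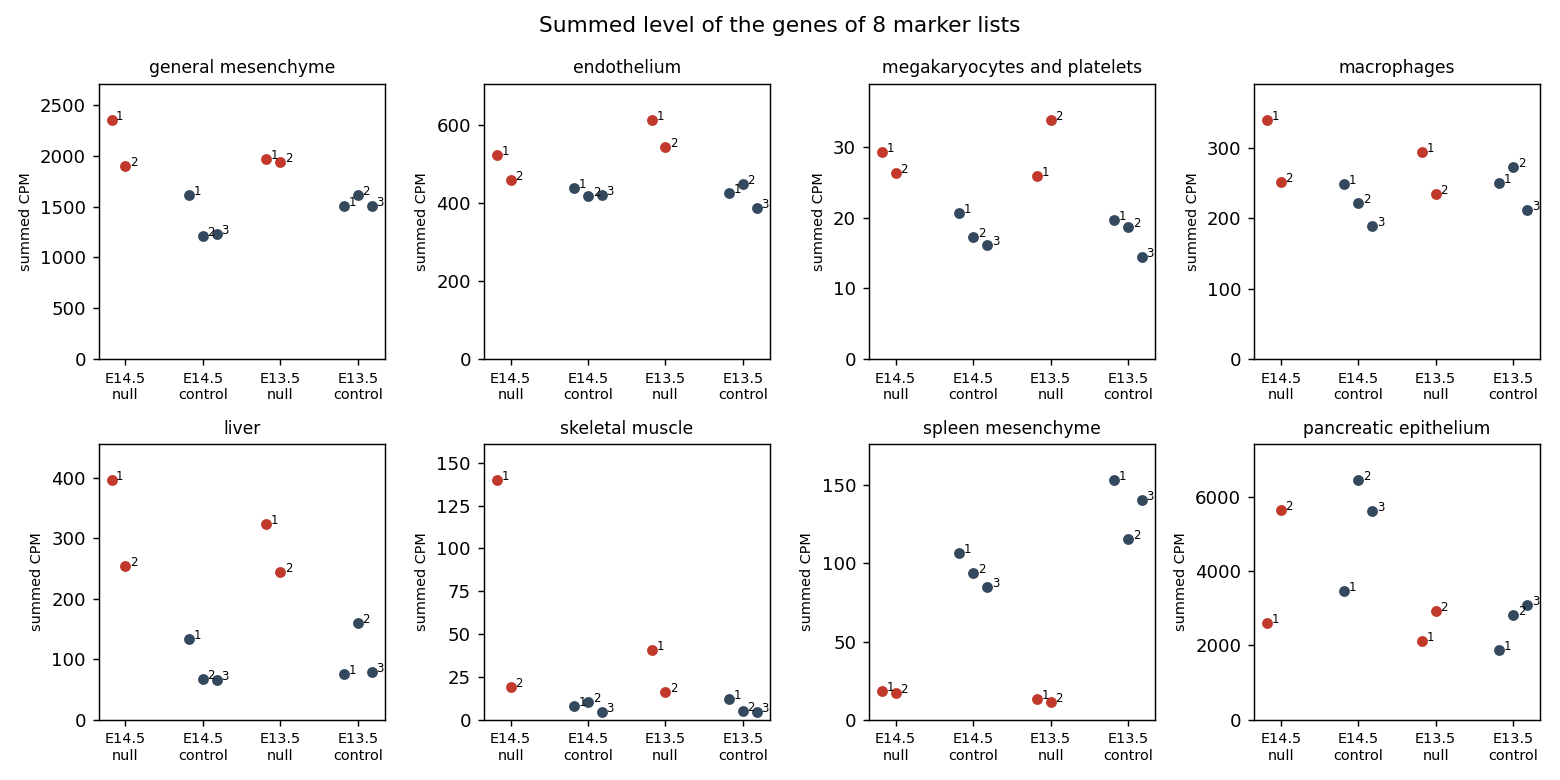
Summed CPM of 8 cell type marker lists in every library, on linear axes from 0 that differ between panels, with null-labelled libraries left of controls at each stage and replicate numbers beside the points. The general mesenchyme, endothelium, megakaryocyte, liver and skeletal muscle sums are higher and the spleen mesenchyme sums lower in the null-labelled libraries at both stages.

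Across the 10 libraries the members fell into patterns that can be described by the correlation of their log2 CPM, with genotype, stage and library composition shared by all points. Tgfb1 and Tgfb2 had a Pearson r of 0.95 with each other, and Tgfbr2 had r of 0.92 with Tgfb2, 0.88 with Tgfb1 and 0.87 with Tgfb3. Tgfbi had r of -0.26, -0.07 and -0.46 with Tgfb1, Tgfb2 and Tgfb3, against 0.67 with Tgfbr1 and 0.68 with Tgfbr3. With the summed marker lists, the highest r over all members and lists was 0.98, between Tgfbr2 and general mesenchyme, and Tgfb1 and Tgfb2 had r of 0.93 and 0.92 with that list. With the liver markers Tgfb1 had r of 0.94, Tgfbr2 0.91, Tgfb2 0.88 and Tgfb3 0.85. Spleen mesenchyme markers had r of -0.86 with Tgfb1, 0.68 with Tgfbi and 0.62 with Tgfbr3. Tgfb1, Tgfb2, Tgfbr2 and Smad7 had r of 0.82 to 0.84 with the markers of neurons and glia. The search for the 3 genes of the highest r with each member ran over 15375 genes with a mean of at least 1 CPM. For Tgfb2 these were Mmp14, a membrane-bound matrix protease gene, at 0.993, Ltbp1 at 0.987 and Gpr17 at 0.983. For Tgfb1 they were the Wnt receptor gene Fzd1 at 0.984, the endothelial receptor gene Tie1 at 0.980 and the gap junction gene Gja4 at 0.969.

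The genes closest to Tgfb3 were the heparanase gene Hpse at 0.965, the lactate transporter gene Slc16a3 at 0.965 and Fn1 at 0.960. For the receptors, Tgfbr1 was closest to Wasf1 (0.983), Tgfbr2 to Slc12a4 (0.984) and Tgfbr3 to Guf1 (0.946). Tgfbi was closest to Nfam1 at 0.981, to the lysophosphatidic acid receptor gene Lpar1 at 0.976 and to Tril at 0.974. Smad7 had the adhesion molecule gene Icam1 (0.949) as its closest gene.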

How the data were processed

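RNA was selected by poly(A) and made into libraries with NEBNext Ultra II chemistry, as the labels' protocols give it. The authors deposited whole-number read counts for each gene, and the submitters' processing notes name TopHat, HTSeq, DESeq2 and the mm10 build. Tool versions, the counted annotation and the strand setting are not given in those notes, and antisense overlaps may therefore share reads.

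EdgeR 4.0.16 (R 4.3.3) was run on these counts: quasi-likelihood F tests, TMM factors, the filter on expression by group, and 4 group means fitted to 10 libraries. The 18898 genes tested held 99.9% of the counts, and 6 residual degrees of freedom were left. P-values were adjusted over all genes (Benjamini-Hochberg, threshold 0.05). The standard error was taken as the absolute log2 fold change over the root of the F statistic. Levels in CPM use the TMM-scaled library sizes, and CPM per kb divides by the union of exons in GENCODE M21, to which 54495 of the 54532 identifiers matched. Correlations used log2 CPM with a prior count of 2. The script was tested on simulated data.

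The members and lists were chosen with earlier results of these data known. Of the pathway list genes, the text names those that edgeR called between genotypes, and Ltbp3, Ltbp4 and Fbn1, called with the replicate block. Cdkn2b, Snai1, Smad2 and Smad3 were picked for their role or sign after values were seen, as were the marker genes named. EdgeR also called 1 pathway list gene between stages in null-labelled libraries and 2 in controls, all higher, and these calls are not described. Alternatives were a replicate block, a fit of the compared groups alone, DESeq2 1.42.0, RLE size factors, all genes unfiltered, each library left out, and, chosen after seeing the data, both null-labelled libraries numbered 1 left out.

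Replicate numbers in the labels were taken to pair the genotypes within a stage, since the deviations of same-numbered libraries from their group means correlated over 0.1 in each of 4 pairs, at 0.35 and 0.16 at E14.5 and 0.36 and 0.14 at E13.5. With 2 null-labelled libraries their deviations mirror each other, and number 2 correlated more with control 3 (0.22 and 0.25), so the pairing is weakly grounded.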

Additional observations from a re-analysis of the deposited data

How the results depend on the processing

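Precision was limited by 2 null-labelled libraries a stage. Over the 8 members and all alternatives, 644 of 752 estimates kept both their direction and their side of the threshold, 42 gained a call, 27 lost one and 39 changed sign, none of them of a called result. Most estimates were uncalled in the main fit, so the 644 say little of how firm the calls were. The 27 losses were 17 on the 4 members called over both stages, 5 on Tgfbi at E13.5 and 5 on Tgfbi between stages in controls. The main estimates that changed sign were at most 0.149 on the log2 scale. DESeq2 called 3 members and 290 genes at E14.5, 2 and 254 at E13.5, 5 and 753 over both stages, 1 member and 650 genes between stages in null-labelled libraries, 2 and 1085 in controls, and 4 genes for genotype by stage. Without the low-count filter, 3 members and 547 genes were called at E14.5, 3 and 459 at E13.5, 5 and 963 over both stages, 888 genes between stages in null-labelled libraries, 2 members and 1292 genes in controls, and 1 and 51 for genotype by stage. That fit took the spread from the trend over all genes, so a gene's own variation among replicates did not enter its p-value. The fits of only the groups compared called 2 genes at E14.5, and 3 members and 197 genes at E13.5. Between stages they called 19 genes in null-labelled libraries, and 1 member, Tgfbi, and 330 genes in controls.

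With the replicate block, 4 members and 464 genes were called at E14.5, 5 and 566 at E13.5, 7 and 1102 over both stages, and 1 and 13 for genotype by stage. With the number blocked over stages, 1 member and 987 genes were called between stages in null-labelled libraries and 2 and 1607 in controls, where same-numbered libraries correlated at 0.04 to 0.30 and were not taken as paired. The block changed no other call of a member than those given with the results and Tgfbr1 between stages. Without null-labelled library 1 of both stages, the called genes numbered 13 at E14.5, 26 at E13.5, 101 over both stages (with 1 member), 21 between stages in null-labelled libraries and 397 in controls.

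Leaving out 1 library at a time gave 0 to 3 called members and 2 to 259 genes at E14.5, 0 to 2 and 7 to 128 at E13.5, 1 to 5 and 140 to 679 over both stages, 0 members and 0 to 266 genes between stages in null-labelled libraries, and 0 to 3 and 0 to 1210 in controls. The highest gene count of each range came without E14.5 control 1.

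The sign changed for Tgfbr1 at E13.5 under DESeq2 and RLE factors (-0.003 each), and with the block at E14.5 (-0.034) and over both stages (-0.005). Without both libraries numbered 1 it changed between stages in null-labelled libraries for Tgfb3 (-0.132), Tgfbr2 (-0.028) and Tgfbr3 (0.016). Leaving out 1 library gave log2 fold changes on both sides of 0 for Tgfbr1 at E14.5 (-0.035 to 0.054), at E13.5 (-0.115 to 0.111) and over both stages (-0.046 to 0.067), and for Fgf9 at E14.5 (-0.676 to 0.259). Between stages it did so in null-labelled libraries for Tgfb3 (-0.234 to 0.424), Tgfbr2 (-0.077 to 0.285) and Tgfbr3 (-0.227 to 0.16), and in controls for Smad7 (-0.208 to 0.043). Of the 39 sign changes 18 were in genotype by stage, where leaving out 1 library gave -0.008 to 0.17 for Tgfb1, -0.442 to 0.413 for Tgfb2, -0.51 to 0.148 for Tgfb3, -0.088 to 0.139 for Tgfbr1 and -0.022 to 0.365 for Tgfbr3. The causes were not tested.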
